A study of Mus musculus with 6 samples.

Results

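The genes described here are 8 of the 23358 genes in a table of RNA sequencing counts from cultured mouse cells. They are Vim, Des, Nes, Synm, Krt8, Krt18 and Krt19, which encode proteins of cytoplasmic intermediate filaments, and Plec, which encodes the linker protein plectin. They were chosen by name, as the table's rows with these symbols, and all 8 were found. The cells were marrow-derived mesenchymal stem cells of C57BL/6 mice, used at passage 6 to 12 and transfected with an siRNA against Dia2 (3 libraries, siRNA at 50 nM) or with a non-targeting control siRNA (3 libraries). Cells of both groups adhered for 24 h, were transfected overnight, and were lysed 24 h after the medium was changed. Dia2, the product of Diaph3, is a formin, a protein that builds actin filaments. A single siRNA sequence was used against it, the cells were passaged in culture, and nothing in the labels tells if each library had a culture of its own. The p-values therefore reflect no more than the spread among these libraries, and that spread may be technical.

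Intermediate filaments are the tough, rope-like fibres of the cytoskeleton, and they are built from a family of related rod proteins whose mix differs between cell types. Vimentin is the main filament protein of mesenchymal cells, desmin that of muscle, and nestin and synemin join filaments of vimentin or desmin as partners. Keratins form the filaments of epithelia, and each needs a type I and a type II chain. Plectin is a giant linker that ties intermediate filaments to actin, microtubules, cell adhesions and the nucleus.

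Total counts ranged from 78529650 to 95573070 with Dia2 siRNA and from 70538768 to 110006338 with control siRNA. All deposited counts were even, so the number of independent fragments is at most each total divided by 2. A floor of 6 counts equals 0.0534 to 0.087 CPM on the scaled values used below, and it covers counting error alone because molecules were not individually tagged. The targeted gene, Diaph3, stood at 7.52, 8.37 and 7.39 CPM with Dia2 siRNA and at 84.7, 80.1 and 84.8 CPM with control siRNA (log2 fold change -3.42 ± 0.07). CPM values here are counts scaled to a common library size with TMM factors, replicates 1, 2 and 3 are given in that order, and a log2 fold change is that of Dia2 siRNA over control siRNA with its standard error. Of 10 marker genes for mesenchymal stem cells, 9 were detected well enough to test, and Thy1, the exception, stayed near 0. In RNA from a whole culture, fewer cells of one type and less RNA in each cell cannot be told apart.

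The siRNA is shown because it defines the Dia2 group. Capitals in the antisense strand mark bases 2 to 8, the seed.
Dia2 siRNA, stated strand: cagagtccatgattcagaacttaat
Dia2 siRNA, antisense strand: aTTAAGTTctgaatcatggactctg
Among GENCODE M21 transcripts, only those of Diaph3 matched the stated strand over its whole length. The target word of the antisense seed, AACTTAA, was in the longest annotated 3′ UTR of 0 of the 8 genes and of 13.0% of the 13002 tested genes with such an annotation. The target word of the stated strand's own seed, GGACTCT, was in that of Plec, once, and of 12.5% of the tested genes.

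The start regions of 4 filament genes are shown because these genes ranged from a clear rise to a fall. Each runs from 250 bases before the start of transcription to 50 after it, in RefSeq's GRCm38.p6 table, which held such a region for 6 of the 8 genes, without Plec and Krt19. Capitals mark the CCAAT box (CCAAT), the TATA box (TATAAA) and the GC box (GGGCGG), each searched on both strands, so that a box on the other strand reads ATTGG or CCGCCC.
Vim, chr2:13574061-13574360, plus strand: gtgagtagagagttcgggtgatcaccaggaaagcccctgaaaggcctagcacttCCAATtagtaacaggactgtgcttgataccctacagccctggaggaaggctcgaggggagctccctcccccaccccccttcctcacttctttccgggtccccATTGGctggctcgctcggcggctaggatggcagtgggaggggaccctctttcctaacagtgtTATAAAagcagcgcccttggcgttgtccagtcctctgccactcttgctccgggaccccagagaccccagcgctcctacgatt
Des, chr1:75360042-75360341, plus strand: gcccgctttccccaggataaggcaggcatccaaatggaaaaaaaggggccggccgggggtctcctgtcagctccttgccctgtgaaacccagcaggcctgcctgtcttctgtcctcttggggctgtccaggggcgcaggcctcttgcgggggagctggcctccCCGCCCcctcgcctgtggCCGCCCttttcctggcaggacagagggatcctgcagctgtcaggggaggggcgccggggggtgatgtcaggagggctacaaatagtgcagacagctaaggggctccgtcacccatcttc
Nes, chr3:87970843-87971142, plus strand: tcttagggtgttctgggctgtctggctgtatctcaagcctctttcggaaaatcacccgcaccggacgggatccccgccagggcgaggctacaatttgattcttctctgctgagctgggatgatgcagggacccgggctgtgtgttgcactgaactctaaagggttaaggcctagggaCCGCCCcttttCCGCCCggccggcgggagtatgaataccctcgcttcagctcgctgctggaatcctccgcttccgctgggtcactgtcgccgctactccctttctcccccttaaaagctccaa
Synm, chr7:67759693-67759992, minus strand: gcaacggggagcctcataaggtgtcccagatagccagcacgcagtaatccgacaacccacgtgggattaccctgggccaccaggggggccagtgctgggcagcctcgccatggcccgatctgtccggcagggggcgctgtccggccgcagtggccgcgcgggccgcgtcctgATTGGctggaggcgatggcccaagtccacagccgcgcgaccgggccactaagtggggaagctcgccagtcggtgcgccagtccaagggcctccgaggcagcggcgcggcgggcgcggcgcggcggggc
The Vim region holds a TATA box that begins 32 bases before the start and CCAAT boxes that begin 196 and 94 bases before it. The Synm region holds a CCAAT box that begins 78 bases before the start and neither of the other boxes. The regions of Des and Nes hold 2 GC boxes each, beginning 87 and 69 bases before the start of Des and 73 and 62 before that of Nes. The Des region ends at 75360341, before the deposited start of Des at 75360344, so its distances hold only for the start used here. Of 32851 start regions in the table, 37.4% hold a CCAAT box, 13.6% a TATA box and 35.7% a GC box. Neither TGANTCA, the AP-1 site, which 7.81% of regions hold, nor the CArG box, which 1.63% hold, was found in the start regions of Vim, Des, Nes, Synm, Krt8 or Krt18. GC made up 72.7% of the Synm region, 65.3% of the Des region, 59.3% of the Vim region and 58.7% of the Nes region, against a median of 52.7% over all regions.

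With Dia2 siRNA the transcripts of vimentin, synemin and plectin rose and those of nestin and keratin 19 fell, while desmin did not pass the test and keratins 8 and 18 lay at the limit of detection. Of the 8 genes, 6 had enough counts to test, and 5 of these passed an adjusted p of 0.05, 3 higher and 2 lower. Over all 14151 genes tested, 59.2% passed, 29.3% higher and 29.9% lower, so passing was common in this comparison. The libraries of the groups did not overlap for 5 of the 6 genes, and for 64.6% of all genes tested. Absolute log2 fold changes had a median of 0.57 over the 6 genes and of 0.30 over all genes tested. Changes of at least 2-fold were seen for Synm and Krt19, and for 9.17% of all genes tested.

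**Figure D1:**
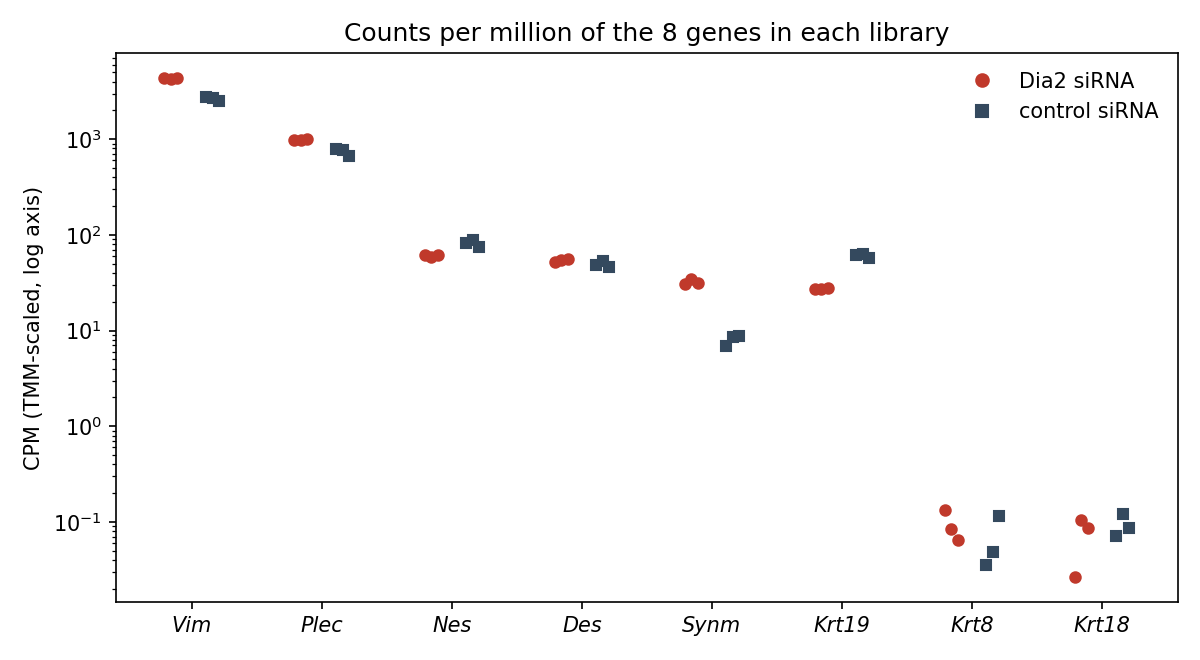
Each point is 1 library, with CPM (TMM-scaled counts, log axis) for the 8 genes, Dia2 siRNA as red circles on the left of each pair and control siRNA as dark squares on the right. Vim lies near 4334 CPM with Dia2 siRNA against 2672 with control siRNA, the Synm groups are far apart, and Krt8 and Krt18 lie near 0.1 CPM in both groups.

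Vim (chromosome 2, 13574311 to 13582826), the type III filament gene that marks mesenchymal cells, was by far the most abundant of the set. It stood at 4369.9, 4283 and 4348 CPM with Dia2 siRNA and at 2787, 2709.6 and 2518 CPM with control siRNA. All Dia2 libraries lay above all control libraries. The means were 4334 ± 45.1 CPM with Dia2 siRNA and 2672 ± 138 CPM with control siRNA (SD, n = 3 each), a 1.62-fold rise (log2 fold change 0.70 ± 0.05, adjusted p = 1.09e-07). On a scale of CPM per kilobase of the deposited gene length, Vim ranked 7 to 8 among all genes in the Dia2 libraries and 18 to 19 in the control libraries. Of all genes tested, 11.4% had a higher log2 fold change. Other mesenchymal stem cell markers rose too, 9 of 9 tested, and the list summed to 3166 to 3243 CPM with Dia2 siRNA and to 2219 to 2291 CPM with control siRNA. Blood markers, low in all libraries and with Tyrobp at 0, summed to 3.39 to 4.51 CPM with Dia2 siRNA and to 8.33 to 9.47 CPM with control siRNA, and 3 of the 4 tested were lower. Endothelial markers summed to 0.812 to 0.958 CPM with Dia2 siRNA and to 1.34 to 1.53 CPM with control siRNA, with Emcn at 0 and 1 of the 3 tested, Kdr, lower. Over all genes tested, 29.3% were higher and 29.9% lower, the background for these and the later marker lists. The part of these lists in the change of Vim was not tested.

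Des (chromosome 1, 75360344 to 75367715) encodes desmin, the type III filament protein of muscle, which can assemble with vimentin. It stood at 52.7, 55.1 and 55.4 CPM with Dia2 siRNA and at 48.8, 53.6 and 45.9 CPM with control siRNA. The groups overlapped, since control replicate 2 was above Dia2 replicate 1. The log2 fold change of 0.14 ± 0.06 did not pass (adjusted p = 0.0669, unadjusted p = 0.0413). Its 95% interval, taken from the standard error by a normal approximation, ran from 0.02 to 0.25. An interval matched to the test used would be wider. Des passed under upper-quartile factors (0.17, adjusted p = 0.0251), when only genes averaging 1 CPM or more were tested (0.16, adjusted p = 0.0364) and without control replicate 2 (0.19, adjusted p = 0.0241). Over all alternatives its adjusted p ran from 0.0241 to 0.221.

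Synm (chromosome 7, 67730161 to 67759742) encodes synemin, a large filament protein that does not assemble alone and links filaments of vimentin or desmin to membrane sites. It showed the largest change of the set. It stood at 31.0, 34.3 and 31.2 CPM with Dia2 siRNA and at 6.87, 8.64 and 8.73 CPM with control siRNA. The lowest Dia2 library was more than 3-fold above the highest control library. The means were 32.2 ± 1.81 CPM with Dia2 siRNA and 8.08 ± 1.05 CPM with control siRNA (SD, n = 3 each), a 4.0-fold rise (log2 fold change 2.00 ± 0.09, adjusted p = 6.51e-09), and 1.13% of the genes tested rose more. Ttc23, which overlaps Synm on the other strand, rose as well, 2.03-fold, to 15.7, 17.1 and 18.3 CPM with Dia2 siRNA against 8.26, 8.47 and 8.44 CPM with control siRNA (log2 fold change 1.02 ± 0.07, adjusted p = 1.69e-07). The exons of the 2 genes share 84 bases, 1.06% of those of Synm, and without a stated strand setting reads from these bases cannot be told apart. Whether reads of one gene entered the count of the other was not tested.

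Nes (chromosome 3, 87971093 to 87980451) encodes nestin, which joins vimentin in dividing progenitor cells and is used as a marker of neural and stromal stem cells. It stood at 61.8, 58.1 and 61.0 CPM with Dia2 siRNA and at 81.8, 87.6 and 75.0 CPM with control siRNA. All Dia2 libraries were below all control libraries. The means were 60.3 ± 1.94 CPM with Dia2 siRNA and 81.5 ± 6.3 CPM with control siRNA (SD, n = 3 each), 1.35-fold lower with Dia2 siRNA (log2 fold change -0.43 ± 0.06, adjusted p = 4.66e-05). The neural marker list was scarce in both groups, with Sox1 at 0 in all libraries. Its 8 genes summed to 2.05 to 2.60 CPM with Dia2 siRNA and to 1.22 to 1.39 CPM with control siRNA, and 1 of the 4 tested, S100b, was higher. Its part in the change of Nes was not tested.

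Keratin 19 was the only abundant keratin of the set, and it fell. Krt19 (chromosome 11, 100140811 to 100145919) encodes a short type I keratin of simple epithelia. It stood at 27.0, 27.4 and 27.6 CPM with Dia2 siRNA and at 61.5, 63.7 and 57.3 CPM with control siRNA. No library of one group came near the other group. The means were 27.3 ± 0.286 CPM with Dia2 siRNA and 60.9 ± 3.27 CPM with control siRNA (SD, n = 3 each), 2.23-fold lower with Dia2 siRNA (log2 fold change -1.15 ± 0.06, adjusted p = 1.17e-08), and 2.08% of the genes tested had a lower log2 fold change. Krt8 (chromosome 15, 101996711 to 102004342) and Krt18 (chromosome 15, 102028216 to 102032026), the type II and type I keratins that pair in simple epithelia, are neighbouring keratin genes and were almost absent. Krt8 had 10, 8 and 6 counts with Dia2 siRNA and 4, 4 and 8 counts with control siRNA. Krt18 had 2, 10 and 8 counts with Dia2 siRNA and 8, 10 and 6 counts with control siRNA. With a floor of 6 counts no fold change is given, and no difference was detectable at this depth. Epithelial markers were as scarce, with Epcam at 0 in all libraries. The 10 of them summed to 0.638 to 0.896 CPM with Dia2 siRNA and to 0.319 to 0.427 CPM with control siRNA, and 1 of the 2 tested, Cldn7, was higher. Mesothelial markers, 5 in number, summed to 0.718 to 0.812 CPM with Dia2 siRNA and to 0.516 to 0.657 CPM with control siRNA, and the 1 tested, Msln, did not pass. The part of either list in the change of Krt19 was not tested.

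Plec (chromosome 15, 76170974 to 76231378) encodes plectin, the linker of the set. It stood at 971, 988 and 1010.2 CPM with Dia2 siRNA and at 786, 772 and 665 CPM with control siRNA. The groups did not overlap, and control replicate 3 was the lowest library. The means were 989.7 ± 19.7 CPM with Dia2 siRNA and 741 ± 66.0 CPM with control siRNA (SD, n = 3 each), a 1.34-fold rise (log2 fold change 0.42 ± 0.06, adjusted p = 8.56e-05). Without control replicate 3 the log2 fold change was 0.34 and still passed. Per kilobase of gene length its level was 56.5 ± 1.12 CPM with Dia2 siRNA and 42.3 ± 3.77 CPM with control siRNA. Parp10, an overlapping gene on the same strand that shares 205 exon bases with Plec, fell (log2 fold change -0.36 ± 0.07, adjusted p = 0.000518).

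Per kilobase of gene length, the order of the levels with Dia2 siRNA was Vim, Plec, Des, Krt19, Nes and Synm, at means of 2363, 56.5, 25.3, 19.9, 9.84 and 4.09 CPM per kilobase. With control siRNA it was Vim, Krt19, Plec, Des, Nes and Synm, at 1457, 44.3, 42.3, 23.0, 13.3 and 1.03. Krt19 and Plec overlapped over the control libraries, and no other neighbours in either order did. The filament transcripts of these cells were nearly all vimentin, and more so with Dia2 siRNA. Of the summed level of the 7 filament genes, Vim made up 97.6%, 97.5% and 97.5% with Dia2 siRNA and 94.9%, 94.4% and 94.7% with control siRNA. Krt19 made up 0.822 ± 0.0140% with Dia2 siRNA and 2.88 ± 0.0848% with control siRNA (SD, n = 3 each), and Synm 0.169 ± 0.0112% with Dia2 siRNA and 0.0671 ± 0.0113% with control siRNA. Des made up 1.04 ± 0.0354% with Dia2 siRNA and 1.495 ± 0.0896% with control siRNA, and Nes 0.406 ± 0.00904% with Dia2 siRNA and 0.864 ± 0.0435% with control siRNA. For these 5 genes the groups did not overlap, and the two-sided exact permutation p was 0.1 for each, the smallest that 3 libraries against 3 allow. Vim made up nearly all of the sum, so the other shares are close to ratios to Vim, and these 5 results are not independent. Des fell in share beside a level that did not pass the test. The share of Krt18 gave the same p without overlap, from counts near the floor (2, 10 and 8 with Dia2 siRNA, 8, 10 and 6 with control siRNA). There were 236, 246 and 238 units of Vim for each unit of Nes per length with Dia2 siRNA and 114, 103 and 112 with control siRNA. Plec per unit of Vim was lower with Dia2 siRNA, at 0.0233, 0.0242 and 0.0243 against 0.0295, 0.0298 and 0.0277 with control siRNA, although both genes rose (two-sided exact permutation p = 0.1; n = 3 each).

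With Vim set aside, desmin led the filament transcripts with Dia2 siRNA and keratin 19 with control siRNA. Of the remaining 6 genes' summed level per length, Des made up 42.7 ± 0.576% with Dia2 siRNA and 28.1 ± 0.506% with control siRNA, whereas Krt19 made up 33.6 ± 0.124% with Dia2 siRNA and 54.2 ± 0.697% with control siRNA. Synm made up 6.91 ± 0.363% with Dia2 siRNA and 1.26 ± 0.191% with control siRNA. The share of Nes overlapped between the groups, at 17.3%, 15.9% and 16.6% with Dia2 siRNA and 16.3%, 16.5% and 16.0% with control siRNA. The share of Des was thus higher beside a level that did not pass the test. These shares are given as a description, with no test.

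**Figure D2:**
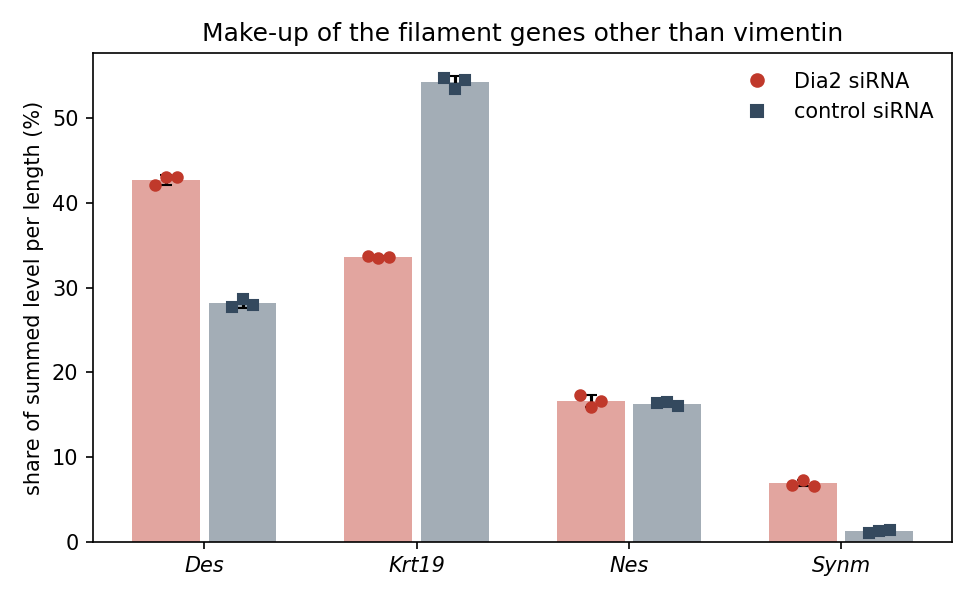
Share of each gene in the summed level per gene length of the 6 filament genes other than Vim, in percent; bars are means, error bars SD over 3 libraries, and points single libraries, with Dia2 siRNA left of control siRNA. Krt8 and Krt18, each under 0.13% in all libraries, are not drawn. Des leads with Dia2 siRNA at 42.7%, and Krt19 with control siRNA at 54.2%.

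Other genes for cytoplasmic filament proteins were mostly silent. Of 60 in the table, 18 had no count in any library and 12 could be tested, of which 4 were higher, 2 were lower and 6 did not pass. The 50.0% that passed compare with 59.2% of all genes tested. Their log2 fold changes had a median of 0.41, against 0.01 over all genes tested. Sync, which encodes syncoilin, a filament protein tied to the dystrophin complex of muscle, rose 2.19-fold, to 9.12, 9.98 and 10.5 CPM with Dia2 siRNA against 4.47, 4.70 and 4.32 CPM with control siRNA (log2 fold change 1.13 ± 0.09, adjusted p = 3.55e-07). Krt80, a type II keratin, rose 1.84-fold, to 12.7 ± 0.257 CPM with Dia2 siRNA against 6.87 ± 0.501 CPM with control siRNA (SD, n = 3 each; adjusted p = 8.93e-07). Krt13, a type I keratin, was 3.40-fold lower with Dia2 siRNA, at 2.26, 2.44 and 2.18 CPM, against 8.83, 7.86 and 6.59 CPM with control siRNA (log2 fold change -1.76 ± 0.12, adjusted p = 1.61e-07). The remaining 3 past the threshold were below 2 CPM on average and are named after their values were seen. Krt36, a hair-type type I keratin, was 11.1-fold lower, with 24, 26 and 24 counts with Dia2 siRNA and 358, 240 and 224 with control siRNA (adjusted p = 1.43e-08). Krt83 and Krt85, hair-type type II keratins, were higher at log2 fold changes of 1.51 and 1.87 (adjusted p = 0.00179 and 0.000496). The deposited span of Krt85 covers that of Krt83 and they are close paralogs, so reads may have been shared between them.

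**Figure D3:**
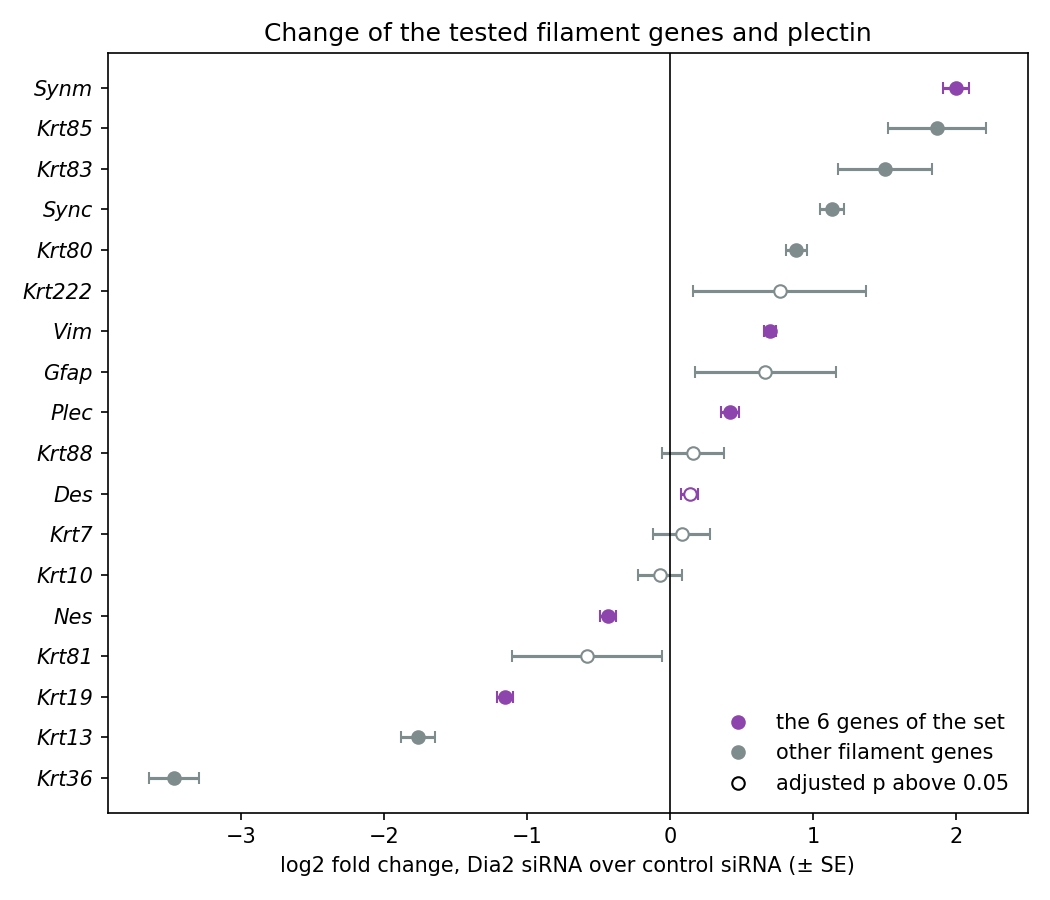
Points are log2 fold changes of Dia2 siRNA over control siRNA with standard errors, for the 6 tested genes of the set in purple and 12 other filament genes in grey; open points had an adjusted p above 0.05. Synm stands at 2.00 at the top and Krt36 at -3.47 at the bottom, with Krt13 and Krt19 next to it.

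Summed by type, a grouping made after the values had been seen, type I keratins were lower and type II keratins higher with Dia2 siRNA. Type I keratins summed to 23.0, 23.4 and 23.2 CPM per kilobase with Dia2 siRNA and to 54.6, 55.6 and 50.3 with control siRNA. Krt19 supplied 85.9% of this sum with Dia2 siRNA and 82.8% with control siRNA. Type II keratins summed to 10.9, 11.1 and 11.1 CPM per kilobase with Dia2 siRNA and to 7.58, 6.60 and 6.498 with control siRNA, with Krt80 as the leading gene at 64.7% with Dia2 siRNA and 56.2% with control siRNA. The ratio of type I to type II was 2.11, 2.10 and 2.08 with Dia2 siRNA and 7.20, 8.42 and 7.75 with control siRNA. These values are a description, and no p-value is given because the grouping followed the values. They mostly restate Krt19 and Krt80.

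**Figure D4:**
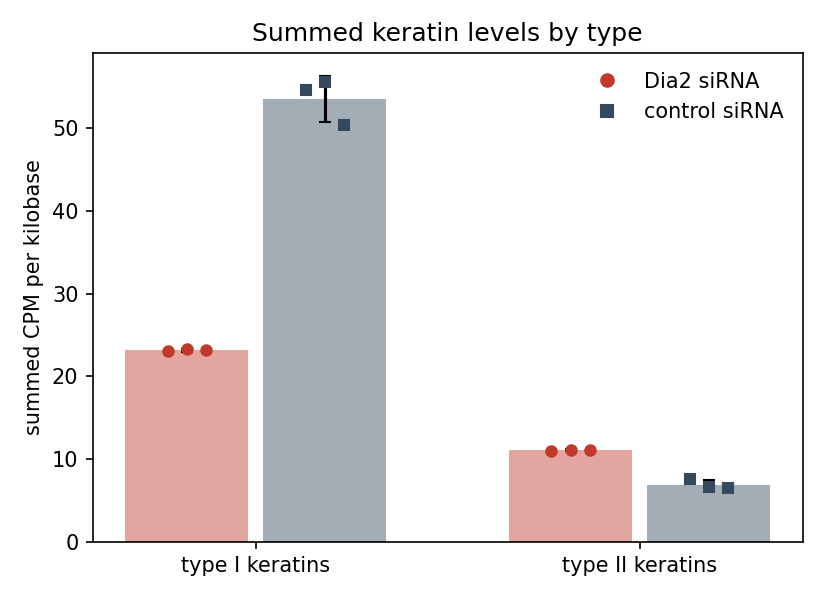
Summed CPM per kilobase of type I and of type II keratins; bars are means, error bars SD over 3 libraries, and points single libraries, with Dia2 siRNA left of control siRNA. Type I stands at a mean of 23.2 with Dia2 siRNA against 53.5 with control siRNA, while type II stands at 11.1 with Dia2 siRNA against 6.89 with control siRNA.

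Genes whose products anchor plectin, synemin and desmin at membranes and muscle attachment sites were higher more often than lower. Among 19 tested genes 14 were higher, 0 were lower and 5 did not pass, so 73.7% were higher, against 29.3% of all genes tested, and the median log2 fold change was 0.56. The number higher was 12 to 15 under the alternatives, and Itgb4, an integrin gene, lost its call under several of them (highest adjusted p = 0.198). The list was chosen with earlier results of these data known, as were those below, so these shares are a description. The nuclear anchor gene of the list, Syne3, was not analysed here. Utrn, which encodes utrophin, a relative of dystrophin, rose 1.48-fold, to 440 ± 1.6 CPM with Dia2 siRNA against 296 ± 9.04 CPM with control siRNA (SD, n = 3 each). Dag1, the gene of dystroglycan, which joins that complex to the matrix, rose 1.69-fold, to 236 ± 4.11 CPM with Dia2 siRNA against 140.0 ± 5.36 CPM with control siRNA. The sarcoglycan genes Sgcb and Sgcd rose 2.14-fold and 2.51-fold, and the syntrophin gene Sntb1 1.70-fold. Nrap, which encodes a muscle protein of filament attachment sites, rose 3.30-fold, to 5.40, 5.33 and 5.001 CPM with Dia2 siRNA against 1.69, 1.73 and 1.31 CPM with control siRNA. Cd151, a tetraspanin of integrin adhesions, rose 1.19-fold. The highest adjusted p of these 7 genes was 0.000673. Nebl, below 2 CPM on average, rose too, with log2 fold changes of 1.66 to 2.74 with a library left out.

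Several of these genes are also active in muscle cells, and markers of skeletal and cardiac muscle were low. Myod1, Myog and Myf5, which define skeletal muscle precursors, were at 0 in all libraries. The 10 skeletal muscle markers summed to 7.85 to 10.4 CPM with Dia2 siRNA and to 5.54 to 6.85 CPM with control siRNA, with 2 of the 4 tested, Acta1 and Chrna1, higher. The 6 cardiac markers summed to 1.69 to 2.89 CPM with Dia2 siRNA and to 1.74 to 2.36 CPM with control siRNA, with none of the 3 tested past the threshold. Smooth muscle and pericyte markers were abundant. The 7 of them summed to 3500.0 to 3727 CPM with Dia2 siRNA and to 2630.3 to 2962 CPM with control siRNA, and 5 were higher and 1, Smtn, lower. Over all genes tested, 29.3% were higher and 29.9% lower. The part of these muscle markers in the changes of Synm, Vim and the anchor genes was not tested.

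Among plectin's relatives and the desmosome genes, too, more were higher than lower. This list was likewise chosen with earlier results of these data known. Among 11 tested genes 6 were higher, 2 were lower and 3 did not pass, so 54.5% were higher and 18.2% lower, against 29.3% and 29.9% of all genes tested, and the median log2 fold change was 0.49. Ppl, which encodes the plakin periplakin, rose 2.13-fold, Eppk1, the epiplakin gene, 1.84-fold, Jup, which encodes the junction protein plakoglobin, 1.55-fold, and Dsc2, a desmosomal cadherin gene, 1.41-fold (adjusted p of 0.00197 or lower). Perp, below 2 CPM on average, rose more than these, with log2 fold changes of 2.53 to 3.14 with a library left out. Pkp2 and Evpl fell, at log2 fold changes of -0.29 and -1.61, the second below 0.5 CPM in both groups. The abundant plakins that bridge actin and microtubules did not pass. Dst stood at 543 ± 12.3 CPM with Dia2 siRNA and 513 ± 14.1 CPM with control siRNA (log2 fold change 0.08 ± 0.05, adjusted p = 0.134), and passed with upper-quartile factors at 0.12 and without control replicate 3 at 0.098. Macf1 stood at 318 ± 5.23 CPM with Dia2 siRNA and 314 ± 5.37 CPM with control siRNA (0.02 ± 0.04, adjusted p = 0.77).

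Genes for kinases, chaperones and turnover of filaments moved both ways, with more lower than higher. Among 24 tested genes 3 were higher, 10 were lower and 11 did not pass. Thus 54.2% passed, 12.5% higher and 41.7% lower, against 59.2%, 29.3% and 29.9% of all genes tested, and their median log2 fold change was -0.06. Cryab, which encodes a small heat shock protein that chaperones desmin and vimentin, rose 1.54-fold, to 123 ± 2.1 CPM with Dia2 siRNA against 79.7 ± 6.13 CPM with control siRNA (adjusted p = 1.56e-06). Prkce, a protein kinase C gene, was 2.02-fold lower with Dia2 siRNA. Rock2, a kinase that phosphorylates vimentin, fell (log2 fold change -0.49 ± 0.07), while its paralog Rock1 rose (0.29 ± 0.08, adjusted p = 0.00694). Of the other abundant genes of the list, Prkca, another protein kinase C gene, fell (-0.37 ± 0.04), as did Mapkapk2, a stress kinase gene (-0.18 ± 0.06, adjusted p = 0.0135, but 0.0679 without Dia2 replicate 2 and 0.0606 without control replicate 1), and the phosphatase gene Ppp1cc rose (0.23 ± 0.04). The mitotic kinase gene Cdk1, the protein kinase A gene Prkaca, the phosphatase gene Ppp2ca and the calpain gene Capn2 did not pass, with log2 fold changes between -0.10 and 0.04 (adjusted p of 0.0672 or higher). Cdk1 passed without control replicate 3 (-0.12, adjusted p = 0.0052), and Ppp2ca passed without control replicate 2 (adjusted p = 0.0397), without control replicate 3 (0.0205) and without Rn45s and Lars2 (0.0468).

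**Figure D5:**
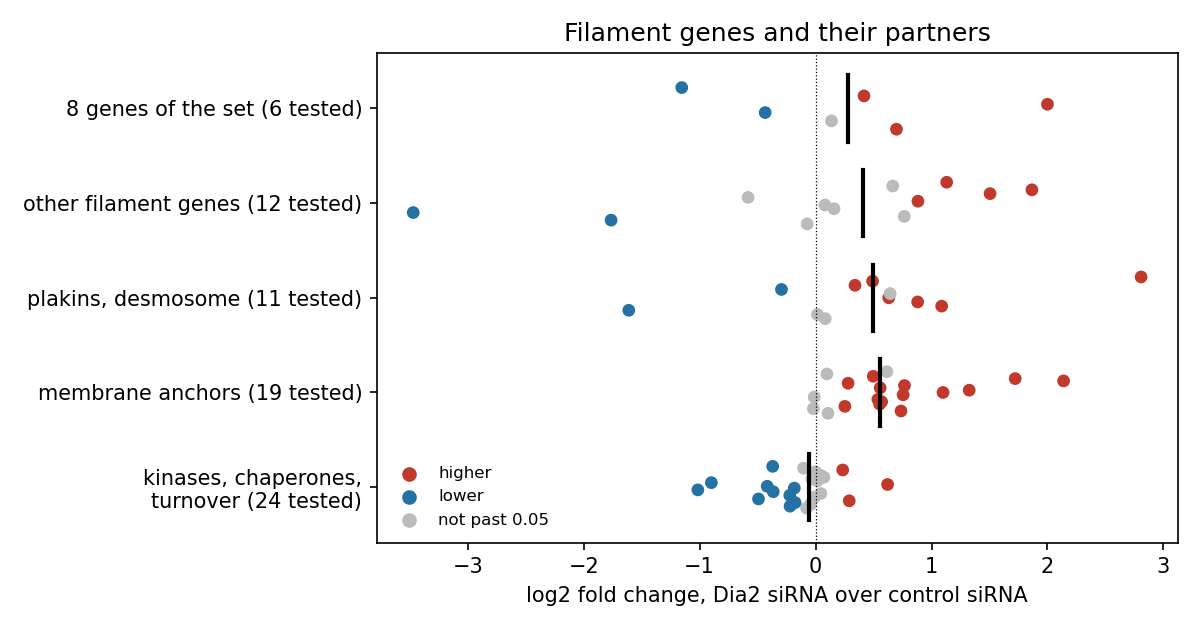
Points are log2 fold changes of Dia2 siRNA over control siRNA for the tested genes of the set and of 4 gene lists; red is higher and blue lower at an adjusted p of 0.05, grey did not pass, and black bars are medians. The anchor genes lie mostly to the right, with a median of 0.56, and the kinase, chaperone and turnover genes lie around 0, with a median of -0.06.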

How the data were processed

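RNA of 6 libraries, 3 with Dia2 siRNA and 3 with control siRNA, was analysed, with groups and replicate numbers taken from the sample titles. The table holds whole-number gene counts and RPKM values, per the file headers, as deposited by the authors, with a gene length for each row. The submitters' processing notes name bcl2fastq, TopHat2 2.0.6 and HTSeq, with no role or order, and the human builds hg19 and GRCh37. The rows are mouse genes, and 99.3% of the 23019 matched by symbol to RefSeq GRCm38.p6 overlapped that gene, so coordinates are read as GRCm38. Not given in the sources used here are the annotation, the strand setting and the handling of multiply matching reads. RPKM values divide the count by the deposited gene length and a library total, so shares computed from them equal those from counts by construction. Older symbols were replaced in 2293 rows.

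Counts were filtered with filterByExpr (minimum count 10, minimum total 15), normalised with TMM and tested with edgeR 4.0.16's quasi-likelihood test across all genes (limma 3.58.1, R 4.3.3), with Benjamini-Hochberg adjustment. The fit was tried on simulated counts in which few genes changed and all genes had the same dispersion. These data differ on both points, so that trial does not cover them. No pair of replicates agreed within sampling noise (chi-square per degree of freedom 6.70 to 85.2). Control replicate 3 gave 85.2 and 77.3, against 6.70 between control replicates 1 and 2. The Dia2 pairs ran from 9.94 to 56.6. Counts of Rn45s made up 11.7% of control replicate 3 and 10.9% of Dia2 replicate 1, against 6.00 to 7.41% elsewhere. The chi-square values include Rn45s, and its part in them was not tested. Without control replicate 3, 9193 genes passed, against 8380 with all libraries and 7343 to 7684 with another library left out. The alternatives were DESeq2 1.42.0, limma-voom, other size factors and filters, counts divided by 2, leaving Rn45s and Lars2 out, a replicate block and each library left out. From each gene list the text names up to 4 genes past the threshold with the largest change and a mean CPM of at least 2, and members above 100 CPM on average; further genes are named for a count or a limit, after their values were seen. The members and lists were chosen with earlier results of these data known. A gene that this rule names is not reported here.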

Additional observations from a re-analysis of the deposited data

How the results depend on the processing

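Vim, Synm, Plec, Nes and Krt19 kept their direction and passed under all 16 alternatives, with log2 fold changes of 0.65 to 0.73, 1.88 to 2.06, 0.34 to 0.46, -0.49 to -0.39 and -1.20 to -1.12. The call for Des depended on the setting, at 0.17 with upper-quartile factors and 0.16 for genes averaging 1 CPM or more, both past the threshold, and 0.085 to 0.19 with a library left out. Among other filament genes, 7 were higher with no filter beyond 1 count, 2 under the 1 CPM filter and 4 to 8 with a library left out (7 without Dia2 replicate 2 and 8 without control replicate 3), against 4. Plakin and desmosome genes lower numbered 1 under the 1 CPM filter, against 2. Filters change how many genes are tested, and the default filter was also rerun each time a library was left out. Beyond that, the cause of the counts with a library left out was not tested. Capn2, with no call, turned positive at 0.033, 0.016 and 0.0017 with upper-quartile factors, the CPM filter and halved counts, and ran from -0.030 to 0.011 with a library left out. Macf1 was -0.0021 with no composition factor and -0.0039 to 0.027 with a library left out, and Krt7, a keratin that did not pass, -0.13 to 0.31. The largest shift that a scaling gave to the median of all genes was 0.04. Same-numbered libraries did not deviate together (correlations of -0.23, -0.12 and -0.28). No pairing by number was thus seen, but deviations from means of 3 libraries cannot exclude one. With the replicate block 7772 genes passed in place of 8380, and the calls of the 6 genes did not change. Depth limits Krt8 and Krt18, which stayed at or near the floor of 6 counts; with no filter beyond 1 count their adjusted p was 0.658 and 0.771.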

Other observations

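The fallen type I keratins are neighbours. Krt36 (chromosome 11, 100102013 to 100105626), Krt13 (100117596 to 100121495) and Krt19 follow one another in the type I keratin cluster, with only Krt15 between Krt13 and Krt19. Krt15 had 14, 4 and 14 counts with Dia2 siRNA and 2, 0 and 2 with control siRNA, too few to test. Krt10 and Krt222, the other type I keratins tested on chromosome 11, did not pass (log2 fold changes of -0.07 and 0.76). Beyond the cluster, Eif1, a translation factor gene, stood at 327 CPM with Dia2 siRNA and 329 CPM with control siRNA and did not pass (log2 fold change -0.01, adjusted p = 0.923), Hap1, the huntingtin-associated protein gene, was lower at very low levels, with 10, 4 and 4 counts with Dia2 siRNA and 24, 18 and 12 with control siRNA (-1.54, adjusted p = 0.0227), and Jup rose. On chromosome 15 the type II genes Krt80, Krt83 and Krt85 rose, while Krt7, Krt88 and Krt81 did not pass (log2 fold changes of 0.08, 0.16 and -0.58). Eif4b, the next gene after Krt18, did not pass either (-0.02, adjusted p = 0.775). These genes were picked after their values had been seen, and reads shared between keratin paralogs were not tested.

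Patterns most like those of Vim and Synm were sought among 8841 other genes averaging 10 CPM or more, by Pearson correlation of log2 CPM over the 6 libraries. For Vim they were Gdnf, Hyou1 and Chpf2, with r of 0.9996 each, and for Synm R3hdm1, Plcb4 and Islr, with r of 0.9996, 0.9996 and 0.9995. The libraries form 2 groups and the largest r of many is shown, so these values mainly restate the difference between groups. Islr, an immunoglobulin-like gene of stromal cells, stood at 18.4 CPM with Dia2 siRNA and 3.46 CPM with control siRNA.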
